A study of Homo sapiens with 9 samples.

Results

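The genes described here are 10 noncoding host genes of small nucleolar RNAs (snoRNAs): GAS5, ZFAS1, SNHG1, SNHG5, SNHG6, SNHG8, SNHG12, SNHG15, SNHG16 and EPB41L4A-AS1. They were taken by gene name from a table of 62710 genes, and all 10 were found. A mean of at least 10 over all libraries was needed for a gene to enter the test, and 9 of the 10 had it, among 15230 genes in all. The member left out was SNHG5.

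The cells were A375R, a human A375 melanoma line that is resistant to the BRAF inhibitor PLX4032 and is kept in medium with that drug. All 9 libraries came from this one line, with no genetic change between the groups, and each treatment had 3 biological replicates. The control cells received DMSO, the solvent. Their labels read only wild type with no dose, apart from a time of 2 h in the library names of replicates 2 and 3. The control treatment comes from the series' design text. The other cells received 10 µM VHL-r, the part of the compound that binds the VHL ubiquitin ligase, or R4VPL3-1 at 10 µM, which joins that part to a ligand of the ubiquitin ligase RNF4, for 2 h each. The aim was to find genes that differed between the treatments. The values are normalized counts, that is, reads per gene divided by a size factor for each library, made from poly(A)-selected, strand-specific libraries.

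A snoRNA host gene is transcribed and spliced like an mRNA, and the snoRNAs, which guide chemical modification of ribosomal and other RNAs, are cut out of its introns. The spliced exons of the hosts listed here encode no long protein. Many such transcripts begin with a 5′ terminal oligopyrimidine (5′TOP) tract, a C followed by further pyrimidines that ties translation to growth signals. Ribosomes translate short frames near their 5′ end, and the transcripts are then removed by nonsense-mediated decay, a pathway that destroys RNAs whose reading frame stops well before the last exon junction. Transcripts of this kind accumulate when translation is blocked, for which GAS5, named for its rise in growth arrest, is the classical example.

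The start of each host is shown because the 5′TOP tract lies there. Each line gives 30 bases of GRCh38 on the strand of the gene, 10 before and 20 from the most frequent annotated 5′ end, and the capitals mark the pyrimidine run that begins with the first CTTT. SNHG1 and SNHG15 have no CTTT in the window and are in lower case throughout.
GAS5: accatactgtCTTTTCgaggtaggagtcga
ZFAS1: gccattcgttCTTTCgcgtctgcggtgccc
SNHG8: aggcctcggcCTTTCacattcgggaagcgt
SNHG12: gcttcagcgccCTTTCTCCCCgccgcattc
EPB41L4A-AS1: ggaagcctgtcCTTTCTTCCTTTTggtgcg
SNHG16: gcggtctcgcgttCTTTTCgaggtcggccg
SNHG5: ggagctactggctgcgcacttcggtCTTTT
SNHG1: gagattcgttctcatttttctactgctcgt
SNHG15: cgaggtgcgcggcgcagcgcgcggcgtcag

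These windows lie at chr1:173867970-173867999 on the minus strand for GAS5, chr20:49278632-49278661 on the plus strand for ZFAS1, chr4:118278748-118278777 on the plus strand for SNHG8 and chr1:28581854-28581883 on the minus strand for SNHG12. They lie at chr5:112160854-112160883 on the plus strand for EPB41L4A-AS1, chr17:76557756-76557785 on the plus strand for SNHG16, chr6:85678729-85678758 on the minus strand for SNHG5, chr11:62855866-62855895 on the minus strand for SNHG1 and chr7:44986649-44986678 on the minus strand for SNHG15. The last 20 bases of each window are the first of the first exon. In GAS5, ZFAS1 and SNHG8 the CTTT begins at the start site itself, as it does in SNHG6, whose sequence is not printed. It begins 1 base further in SNHG12 and EPB41L4A-AS1, 3 bases further in SNHG16 and 15 bases further in SNHG5. The start used was shared by 2 of 14 annotated transcripts in SNHG15, the lowest share of the hosts. It was shared by 25 of 80 in SNHG1 and by 61 of 89 in SNHG5, the highest share. The offsets, and the lack of a match in SNHG1 and SNHG15, hold for these starts only.

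The letters CTTT on the transcript's strand were searched after these windows had been seen. Of the 9 hosts tested, 7 (77.8%) held them, against 10.7% of 15221 genes tested with an annotated start. Ribosomal protein genes held them in 50 of 75 (66.7%), other listed 5′TOP genes in 14 of 23 (60.9%), and the other noncoding snoRNA hosts in 2 of 11 (18.2%). On the opposite strand, where the match reads AAAG, 0 of the 9 hosts and 7.98% of all genes matched. A match is only a description of these letters, and annotated starts stand in for measured ones.

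The annotated transcripts of the hosts were also read for their first ATG frame. Its median length was between 12 codons in SNHG5 and 50 codons in GAS5, so short frames were common to the 10 genes. An exon junction lay more than 50 bases after the stop codon, the usual mark of a nonsense-mediated decay substrate, in 71.4% of the ZFAS1 transcripts, 97.8% of the 91 GAS5 transcripts and 100% of the 9 EPB41L4A-AS1 transcripts. Other noncoding snoRNA hosts had short first frames too, with medians from 1 codon in DANCR to 39 codons in SNHG29. Such a junction lay in 98.3% of the SNHG17 transcripts and in 0.0% of those of SNHG25. Frames of this kind are read from the annotation, and translation was not measured.

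Before the test the libraries were compared. They held 26435568 to 32085626 reads on genes, with a median of 28165279. On the third principal component of all tested genes (9.1% of the variance), replicate 3 of each treatment lay apart from replicates 1 and 2. On the second (11.2%), R4VPL3-1 replicate 3 lay nearest of its group to the VHL-r libraries, at 4.7 against 16.6 and 13.2. The melanoma markers had a mean of at least 10 in 8 of 10 genes, with TYR and MLANA below it. Their summed level was 49554 to 52483 with DMSO, 39013 to 45624 with VHL-r and 38118 to 42178 with R4VPL3-1, and their part in the results was not tested. Of the markers of other cells, 3 of 5 keratinocyte genes (summed level 1915 to 2307), 5 of 5 fibroblast genes (1559 to 3310) and 2 of 5 leukocyte genes (91.5 to 177) had a mean of at least 10. In bulk RNA fewer cells and less RNA per cell cannot be told apart.

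Per kilobase of exon, GAS5 had the highest level of the hosts in each treatment. In DMSO-treated cells the mean normalized count per kilobase was 1160.1 for GAS5, 1090.0 for SNHG6 and 888 for SNHG1, a group well above the rest. It was 494 for SNHG16, 411 for ZFAS1, 259 for SNHG12 and 199 for SNHG15, and the lowest of the tested hosts were EPB41L4A-AS1 at 144 and SNHG8 at 134. No neighbours in this order had overlapping libraries with DMSO. With VHL-r, ZFAS1 (585) stood above SNHG16 (421), and the libraries of EPB41L4A-AS1 and SNHG8 overlapped. With R4VPL3-1, SNHG1 (1386) stood above SNHG6 (1115), and its libraries overlapped those of GAS5 (1538). There SNHG12 (444) also overlapped SNHG16 (433), and SNHG8 (157) overlapped EPB41L4A-AS1 (152). These levels use the length covered by the exons of all annotated transcripts together. Other genes on the same strand shared between 0.0% of it in GAS5 and 15.39% in SNHG1. In SNHG1, SNHG8, SNHG15 and EPB41L4A-AS1 this length is that of the whole gene, introns included. The order between hosts thus rests on the annotation as well. Without division by length, GAS5 still had the highest mean in each treatment, but ZFAS1 (3420) was above SNHG16 (2851) already with DMSO.

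**Figure D1:**
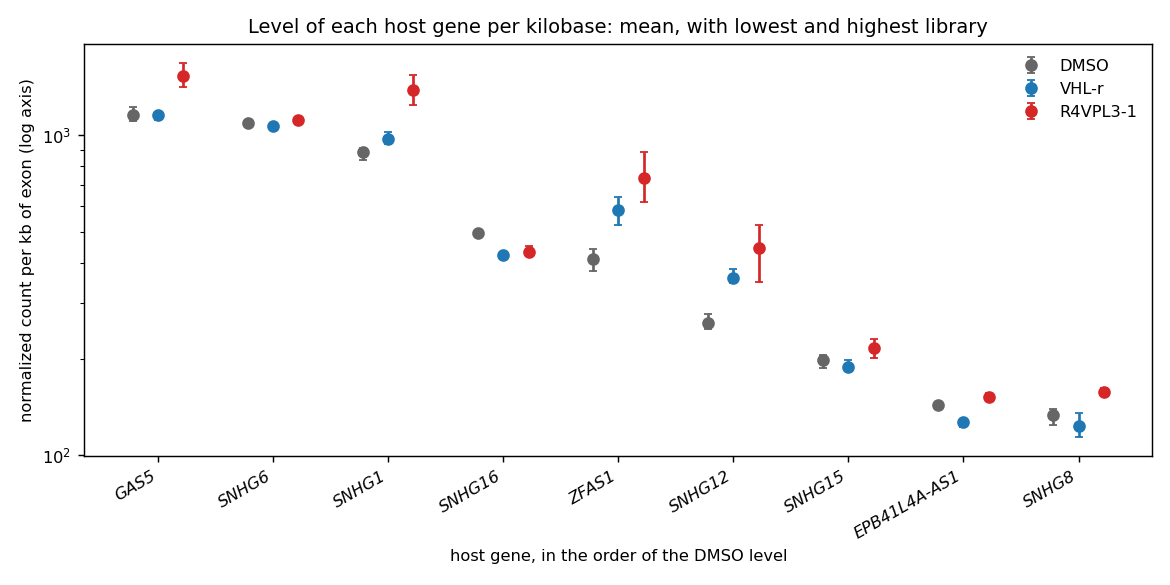
Mean normalized count per kilobase of exon (log axis) of the 9 tested hosts in DMSO, VHL-r and R4VPL3-1, with bars from the lowest to the highest of 3 libraries; hosts stand in the order of their DMSO level. GAS5 lies highest in each treatment. Per kilobase, ZFAS1 lies below SNHG16 with DMSO and above it with both compounds. Its count before division by length is above that of SNHG16 in each treatment.

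The reads of the 10 hosts together made up 0.0713% to 0.0792% of all reads with DMSO and 0.0801% to 0.0848% with VHL-r. With R4VPL3-1 the share was 0.113%, 0.0994% and 0.0932% in replicates 1, 2 and 3. These ranges did not overlap, and R4VPL3-1 replicate 3 was the lowest of its group. Within R4VPL3-1, replicate 1 held the highest value for 7 of the 9 tested hosts and replicate 3 the lowest for 5, while replicate 1 of DMSO held the lowest for 6.

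**Figure D2:**
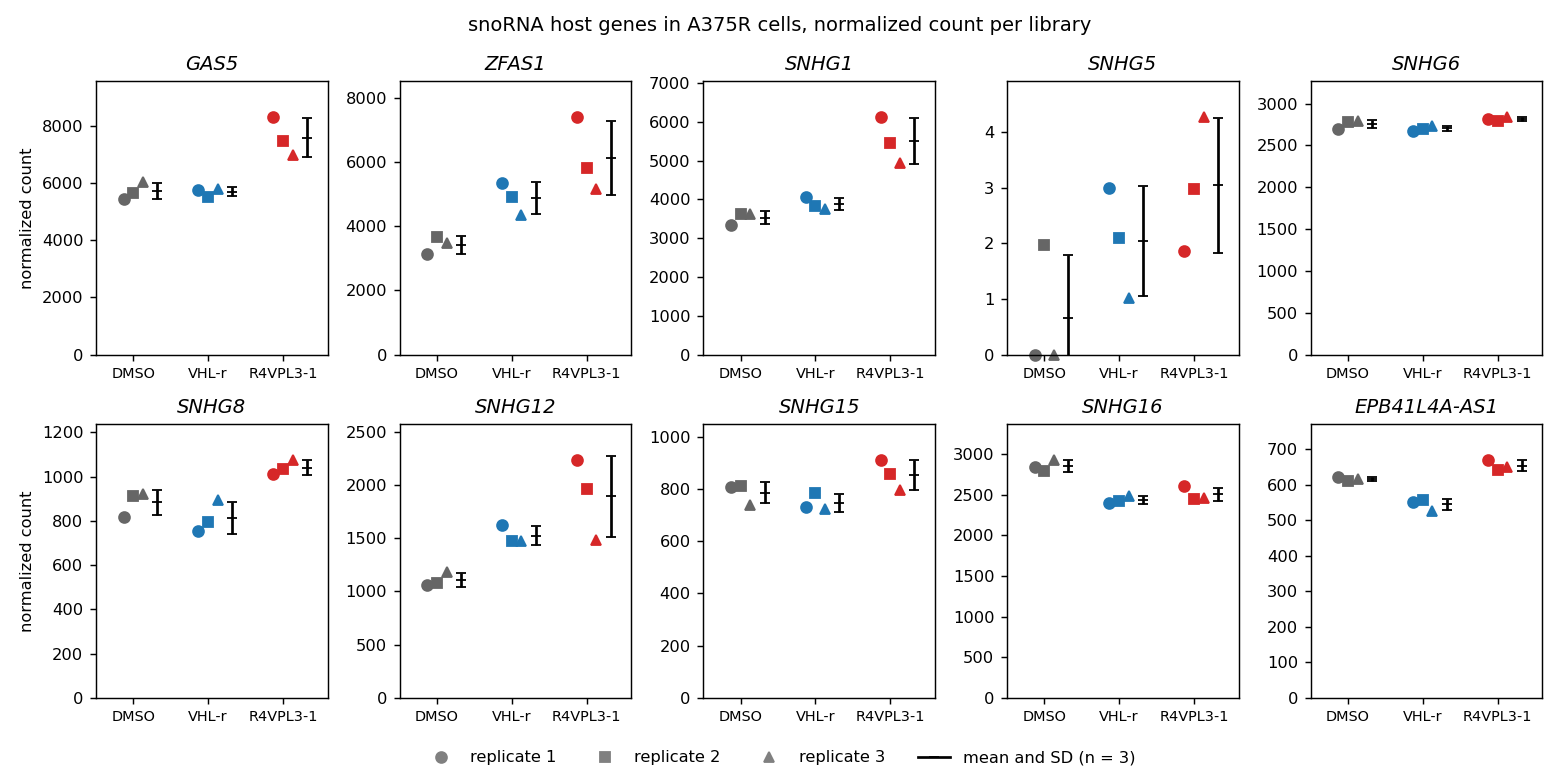
Normalized count of each host (y axis, from 0) in every library of DMSO, VHL-r and R4VPL3-1, with a symbol per replicate and the mean and SD of 3 libraries in black. GAS5 and SNHG1 are higher with R4VPL3-1 than in all other libraries, and so, by less, are SNHG8, EPB41L4A-AS1 and SNHG6. ZFAS1 and SNHG12 are higher than DMSO with both compounds, and SNHG16 is lower with both.

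The first comparison asked what VHL-r alone did. Of the 9 hosts tested, ZFAS1 and SNHG12 rose and SNHG16 fell, and 6 did not pass the test. Called means an adjusted p of at most 0.05 in limma, which fits a linear model to log2(value + 1) of all genes, with Benjamini-Hochberg adjustment over all of them. Over all genes 19.8% were called, 10.3% higher and 9.51% lower, against 3 of 9 hosts. The median log2 fold change of the 9 hosts was -0.03, beside -0.0045 over all genes tested. The libraries of the groups did not overlap for 3 hosts that were higher and 2 that were lower, beside 17.1% and 17.2% of all genes.

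The second comparison set R4VPL3-1 against DMSO. The hosts ZFAS1, SNHG12, SNHG1, GAS5 and SNHG8 rose, SNHG16 fell, and 3 did not pass. Of all genes 24.9% were called, 13.1% higher and 11.8% lower. The median log2 fold change was 0.24 over the hosts and -0.0063 over all genes. Libraries did not overlap for 7 hosts that were higher and 1 that was lower, beside 19.1% and 18.9% of all genes.

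The third comparison set the full molecule against its VHL-binding part at the same dose and time. SNHG1, GAS5, SNHG8 and EPB41L4A-AS1 were higher with R4VPL3-1, and 5 did not pass. By limma, edgeR and DESeq2 0 hosts were lower, also at an unadjusted p under 0.05, where 7 were higher in each. Here 1.87% of all genes were called, 1.14% higher and 0.729% lower. The fitted difference was above 0 for all 9 hosts, from 0.04 to 0.50 on the log2 scale with a median of 0.29, while the median over all genes was -0.0056. The libraries did not overlap for 6 hosts that were higher and 0 that were lower, beside 6.99% and 7.11% of all genes. The first and second comparison share the DMSO libraries, and the third shares each of its groups with one of them.

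**Figure D3:**
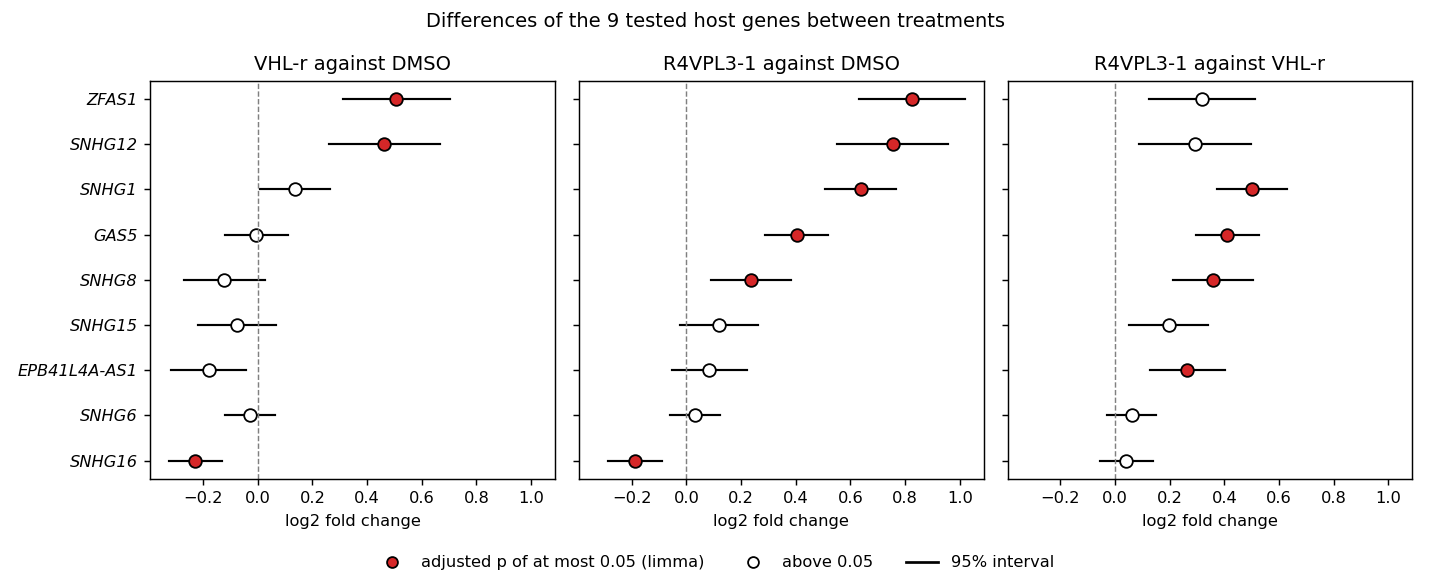
Log2 fold change on the log2(value + 1) scale (x axis) of the 9 tested hosts in the 3 comparisons, with 95% intervals from limma; filled points have an adjusted p of at most 0.05. ZFAS1 and SNHG12 lead both comparisons with DMSO, whereas SNHG1, GAS5 and SNHG8 lead that of R4VPL3-1 against VHL-r.

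ZFAS1 and SNHG12 were higher than DMSO with either compound. ZFAS1 (ENSG00000177410, chromosome 20, 49278178 to 49299600) hosts SNORD12, SNORD12B and SNORD12C, and its name records that it runs antisense to ZNFX1. It had normalized counts of 3122, 3662 and 3476 with DMSO, 5336, 4916 and 4352 with VHL-r, and 7403, 5811 and 5143 with R4VPL3-1 in replicates 1, 2 and 3. Every library of either compound was above every DMSO library, and replicate 3 of R4VPL3-1 lay among the VHL-r libraries. The log2 fold change was 0.51 (SE 0.09, limma adjusted p = 0.000429) with VHL-r, or 1.42-fold, and 0.83 (SE 0.09, adjusted p = 9.67e-07), or 1.77-fold, with R4VPL3-1. The rise with VHL-r had an adjusted p of 0.0573 with limma's robust option, within a range of 7.26e-06 to 0.0573 over all alternatives.

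R4VPL3-1 against VHL-r gave 0.32 for ZFAS1 (95% interval 0.12 to 0.51, limma adjusted p = 0.106), which missed the threshold here. This value moved with single libraries and with the fit: it lay between 0.17 and 0.44 over the alternatives, with adjusted p from 0.00644 to 0.608. It was 0.44 without R4VPL3-1 replicate 3, where it passed.

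SNHG12 (ENSG00000197989, chromosome 1, 28578538 to 28583132) hosts SNORA16A, SNORA44, SNORA61 and SNORD99. Its normalized counts were 1062, 1076 and 1180.4 with DMSO, 1627, 1471 and 1477 with VHL-r, and 2235, 1962 and 1479.5 with R4VPL3-1. The DMSO libraries were the lowest, and R4VPL3-1 replicate 3 again lay among the VHL-r libraries while replicates 1 and 2 lay above them. The log2 fold change was 0.46 (SE 0.10, limma adjusted p = 0.00155) with VHL-r and 0.76 (SE 0.10, adjusted p = 5.31e-06) with R4VPL3-1, or 1.38-fold and 1.69-fold. The rise with VHL-r had an adjusted p of 0.0469 with limma's robust option, the highest in a range from 1.31e-05 over the alternatives. Between the compounds the log2 fold change was 0.29 (95% interval 0.09 to 0.50, adjusted p = 0.192). Without R4VPL3-1 replicate 3 this difference was 0.46 and passed, and over the alternatives it ranged from 0.16 to 0.46 with adjusted p from 0.000372 to 0.827.

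GAS5, SNHG1 and SNHG8 rose with R4VPL3-1 and were also higher with it than with VHL-r. GAS5 (ENSG00000234741, chromosome 1, 173858559 to 173868882) had 5456, 5669.9 and 6039 normalized counts with DMSO, 5773, 5513 and 5802 with VHL-r, and 8322, 7458 and 6978 with R4VPL3-1. All R4VPL3-1 libraries were above all others, while DMSO and VHL-r overlapped. R4VPL3-1 differed from DMSO by 0.40 (SE 0.06, limma adjusted p = 1.1e-05) and from VHL-r by 0.41 (SE 0.06, adjusted p = 8.75e-05) on the log2 scale, which is 1.32-fold and 1.33-fold. VHL-r differed from DMSO by -0.0055, with a 95% interval of -0.12 to 0.11 and an adjusted p of 0.965, and the sign of this difference turned under 4 alternatives.

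SNHG1 (ENSG00000255717, chromosome 11, 62851978 to 62855953) hosts C/D box snoRNAs, among them SNORD22, SNORD25, SNORD26, SNORD27, SNORD28 and SNORD30. It carries no CTTT at its annotated start, which does begin with a C and further pyrimidines (ctc). Its normalized counts were 3337, 3625 and 3632 with DMSO, 4063, 3842 and 3742.5 with VHL-r, and 6131, 5464 and 4939.7 with R4VPL3-1. The groups followed one another without overlap. R4VPL3-1 was higher than DMSO by 0.64 (SE 0.06, limma adjusted p = 1.06e-07) and than VHL-r by 0.50 (SE 0.06, adjusted p = 2.79e-05), or 1.56-fold and 1.42-fold. For VHL-r against DMSO the difference was 0.14 (95% interval 0.01 to 0.27), which missed the threshold (adjusted p = 0.137) and passed without replicate 3 of each treatment (0.0326), in a range of 0.0326 to 0.395.

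SNHG8 (ENSG00000269893, chromosome 4, 118278703 to 118285316), the host of SNORA24, had 819.98, 914 and 919.8 normalized counts with DMSO, 752.5, 793 and 895 with VHL-r, and 1010.3, 1035 and 1076 with R4VPL3-1. The R4VPL3-1 libraries were all highest, and replicate 3 was the highest among them, the opposite of ZFAS1, SNHG1, GAS5 and SNHG12. The log2 fold change was 0.24 (SE 0.07, limma adjusted p = 0.0175) against DMSO and 0.36 (SE 0.07, adjusted p = 0.00516) against VHL-r, and VHL-r differed from DMSO by -0.12 (95% interval -0.27 to 0.02, adjusted p = 0.261). The call against DMSO was lost without DMSO replicate 1 (0.18) and without R4VPL3-1 replicate 3 (0.21), with adjusted p from 0.00444 to 0.103 over the alternatives.

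EPB41L4A-AS1 (ENSG00000224032, chromosome 5, 112160526 to 112164818), the host of SNORA13, had counts on either side of those with DMSO, and neither difference passed. Its normalized counts were 622, 612 and 618 with DMSO, 551, 557 and 526 with VHL-r, and 670.4, 641 and 651 with R4VPL3-1. No group overlapped another, although with 514 to 718 reads a library the counting error alone (SD of 24.4, 23.6 and 25.6 with DMSO, VHL-r and R4VPL3-1) was larger than the spread of the replicates (5.04, 16.2 and 15.1). The difference between the compounds was 0.26 (SE 0.07, limma adjusted p = 0.0404), or 1.2-fold. Neither compound passed against DMSO, with -0.18 for VHL-r (adjusted p = 0.0606) and 0.08 for R4VPL3-1 (adjusted p = 0.404). The call between the compounds sat close to the threshold and was lost under 12 of 22 alternatives, among them the omission of any 1 VHL-r or R4VPL3-1 library and of DMSO replicate 1 or 2, with adjusted p from 0.0298 to 0.218.

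SNHG16 was the member that fell. It (ENSG00000163597, chromosome 17, 76557727 to 76670985) hosts SNORD1A, SNORD1B and SNORD1C. Its normalized counts were 2840.4, 2786 and 2928 with DMSO, 2396, 2419 and 2484 with VHL-r, and 2600.5, 2449 and 2458 with R4VPL3-1. All DMSO libraries were above all libraries of either compound, and the compounds overlapped. SNHG16 fell by 0.23 (SE 0.05, limma adjusted p = 0.00113) with VHL-r and by 0.19 (SE 0.05, adjusted p = 0.00467) with R4VPL3-1 on the log2 scale, and the compounds differed by 0.04 (95% interval -0.06 to 0.14, adjusted p = 0.893).

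SNHG6 and SNHG15 passed in none of the comparisons. SNHG6 (ENSG00000245910, chromosome 8, 66920561 to 66926398), the host of SNORD87, had 2696, 2780.4 and 2787 normalized counts with DMSO, 2673, 2699.7 and 2733 with VHL-r, and 2819, 2788 and 2842 with R4VPL3-1. Its R4VPL3-1 libraries were above all the others, but by little, and the replicate SD in that group (27.4) was under the counting error (53.1): the log2 fold change was 0.03 against DMSO (95% interval -0.06 to 0.12, limma adjusted p = 0.653) and 0.06 against VHL-r (-0.03 to 0.15, adjusted p = 0.771). These intervals lie below the fitted rises of GAS5, SNHG1, ZFAS1 and SNHG12 against DMSO.

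SNHG15 (ENSG00000232956, chromosome 7, 44983019 to 44986961), the host of SNORA9, had 808, 809 and 739 normalized counts with DMSO, 729, 785 and 721 with VHL-r, and 910.4, 856 and 795 with R4VPL3-1. R4VPL3-1 did not overlap VHL-r but did overlap DMSO. The log2 fold change between the compounds was 0.20 (95% interval 0.05 to 0.34, limma adjusted p = 0.232), and R4VPL3-1 against DMSO gave 0.12 (-0.02 to 0.26, adjusted p = 0.229).

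SNHG5 (ENSG00000203875, chromosome 6, 85650491 to 85678932), which hosts SNORD50B, had normalized counts of 0, 1.97 and 0 with DMSO, 3, 2.1 and 1.02 with VHL-r, and 1.87, 2.98 and 4.28 with R4VPL3-1. These are a few reads a library, and no comparison was made. Another gene on the same strand, ENSG00000271793, shares 7.48% of the exon bases of SNHG5, all such genes together share 13.71%, and the exons of ENSG00000271793 cover at least 50% of 49 of the 89 annotated SNHG5 transcripts. The counting program leaves a read on exons of more than 1 gene unassigned. The other gene was listed at 16.4 to 56.7, and the part of the overlap in the low count of SNHG5 was not tested.

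The snoRNAs themselves were not seen in these libraries. The table has 23 snoRNA genes inside 9 of the hosts, all on the host's strand and 69 to 137 bases long, and each was listed at 0 in all 9 libraries. Of 942 snoRNA genes in the table, 18 had a value above 0 in any library. Reads were selected for poly(A), and 20 of the 23 lie at least partly on annotated exons of another gene, which can be the host itself. A 0 here therefore says nothing about the snoRNA level, and no test was possible.

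A gene on the other strand started within 1000 bases of 4 hosts. ZBTB37, a zinc finger gene 93 bases from the start of GAS5, did not pass in any comparison (log2 fold change 0.05 with VHL-r, 0.07 with R4VPL3-1 and 0.02 between the compounds, limma adjusted p = 0.702, 0.505 and 0.969), while GAS5 rose with R4VPL3-1. ZNFX1, an RNA helicase gene 216 bases from ZFAS1, rose with VHL-r by 0.22 (adjusted p = 0.00174) and had 0.09 with R4VPL3-1 (adjusted p = 0.159), where ZFAS1 had 0.51 and 0.83. SLC3A2, the heavy chain of amino acid transporters and itself on the list of stress markers used here, lies 51 bases from SNHG1. It rose with R4VPL3-1 by 0.22 (adjusted p = 0.00357) and had 0.11 with VHL-r (adjusted p = 0.153), beside 0.64 and 0.14 for SNHG1. ENSG00000267546, 44 bases from SNHG16, was too low to test. The differences between a host and its neighbour were not tested.

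Other noncoding snoRNA hosts were counted from a list of 23, of which 22 were in the table and 11 were tested. The tested ones included SNHG29, the most abundant of them at a mean of 11081 normalized counts. SNHG7 rose with VHL-r and SNHG7 and SNHG17 with R4VPL3-1, and 0 of the 11 fell by limma, edgeR or DESeq2, also at an unadjusted p under 0.05. Of all genes limma called 19.8% with VHL-r, 24.9% with R4VPL3-1 and 1.87% between the compounds. SNHG7 had a mean of 1839.9 ± 69.5 (SD, n = 3) with DMSO, 2381 ± 130 with VHL-r and 2908 ± 134 with R4VPL3-1. Its log2 fold change was 0.37 (limma adjusted p = 2.94e-05) with VHL-r, 0.66 (adjusted p = 7.76e-09) with R4VPL3-1 and 0.29 (adjusted p = 0.00279) between the compounds. Between the compounds 2 of the 11 passed in edgeR, in DESeq2 and without R4VPL3-1 replicate 3, against 1 in limma. SNHG17 had 0.19 (adjusted p = 0.0163) with R4VPL3-1, a call lost without DMSO replicate 2, R4VPL3-1 replicate 1 or R4VPL3-1 replicate 2 (adjusted p 0.000517 to 0.128 over the alternatives). The median over the 11 was -0.0080, 0.04 and 0.08 in the 3 comparisons, below the median of the 9 hosts in the comparisons of R4VPL3-1. SNHG3, SNHG4, SNHG28, SNHG32 and DANCR were listed at 0 in every library. SNHG7 and SNHG17 have no CTTT in the window at their start, and the matches were SNHG29 and SNHG25.

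**Figure D4:**
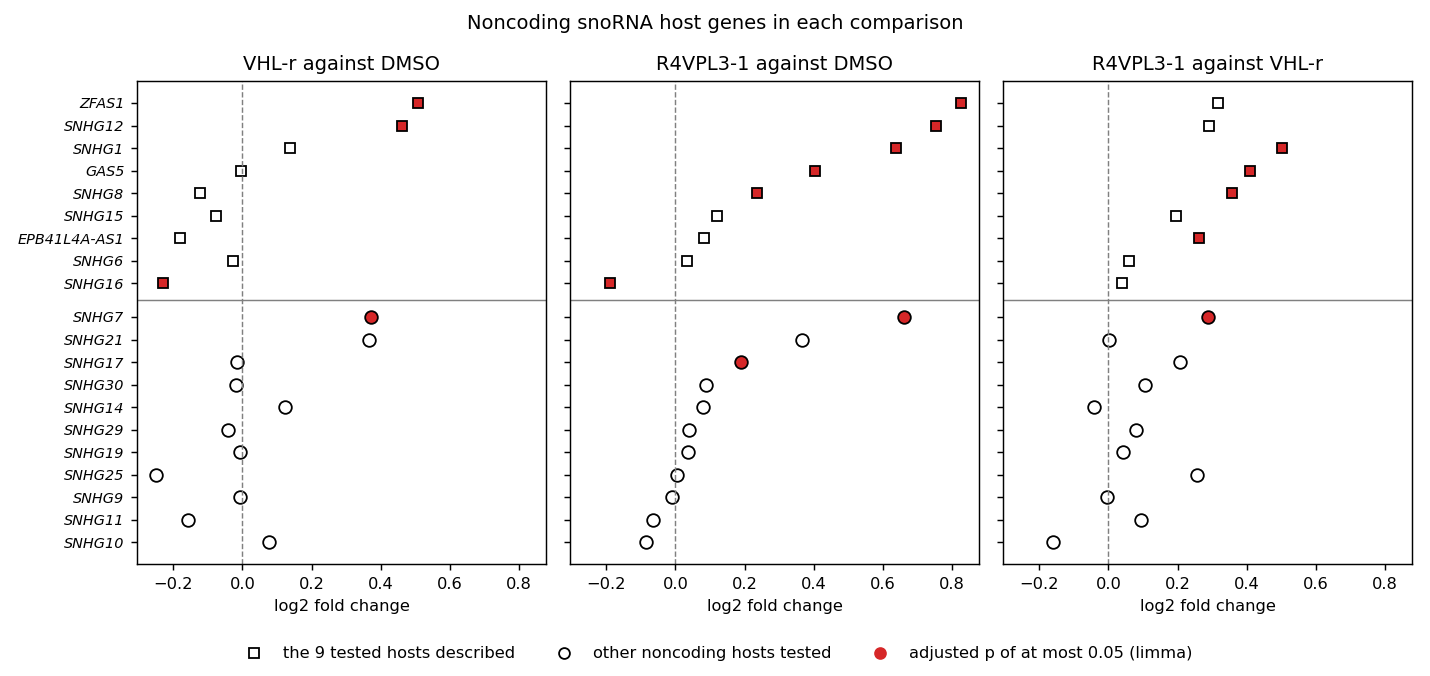
Log2 fold change (x axis) in the 3 comparisons for the 9 tested hosts described here (squares) and the 11 other noncoding hosts tested (circles), each ordered by R4VPL3-1 against DMSO; filled symbols have a limma adjusted p of at most 0.05. Besides SNHG7, the circles lie nearer to 0 than ZFAS1, SNHG12, SNHG1 and GAS5 in R4VPL3-1 against DMSO.

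Protein-coding genes with snoRNAs in their introns mostly did not pass. Of 55 tested, 2 rose and 3 fell with VHL-r, 4 rose and 3 fell with R4VPL3-1, and 2 were higher with R4VPL3-1 than with VHL-r. The shares over all genes were 19.8%, 24.9% and 1.87%. The VHL-r count of 5 was 2 without VHL-r replicate 1 or 2 and 3 without DMSO replicate 2 or R4VPL3-1 replicate 2. The 2 between the compounds were HSPA8, a constitutive heat shock protein, with log2 fold changes of 0.76 against DMSO (limma adjusted p = 6.29e-11) and 0.67 against VHL-r (adjusted p = 3.8e-09), and EIF4A2, an RNA helicase of translation initiation, with 0.31 (adjusted p = 0.000314) and 0.26 (adjusted p = 0.0147). The call of EIF4A2 between the compounds was lost on leaving out R4VPL3-1 replicate 1 or either of VHL-r replicates 2 and 3 (adjusted p 0.00143 to 0.143). WDR43, a factor of ribosome assembly, fell with both compounds, by 0.26 (adjusted p = 0.000224) and 0.21 (adjusted p = 0.00144). The medians over the 55 genes were within 0.02 of 0.

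The 5′TOP mRNAs, many of which share the start motif with the hosts, showed few calls. Of 23 tested other than ribosomal proteins, 0 rose and 2 fell with VHL-r (1 was higher at an unadjusted p under 0.05), and 1 rose and 1 fell with R4VPL3-1. The VHL-r count was 1 without any 1 DMSO library and 0 without VHL-r replicate 1 or 2. The R4VPL3-1 count was 0 without DMSO replicate 2 or 3, VHL-r replicate 2, or R4VPL3-1 replicate 1 or 2, so that the rise, of EEF1D (0.14, limma adjusted p = 0.0346, up to 0.193), was lost there too. Between the compounds 0 passed in limma, edgeR or DESeq2, also at an unadjusted p under 0.05. Over all genes limma called 19.8%, 24.9% and 1.87% in the 3 comparisons, so 0 of 23 between the compounds says little. EIF4B fell with both compounds (by 0.15, limma adjusted p = 0.0124, and by 0.12, adjusted p = 0.0322), both calls being lost when single libraries were left out (VHL-r replicate 1 or 2 for the first, with adjusted p up to 0.0577, and any DMSO library, VHL-r replicate 2 or R4VPL3-1 replicate 1 or 2 for the second, up to 0.139), and the second also with edgeR, upper quartile scaling and no filter. The medians of the list were -0.02, -0.02 and 0.004 on the log2 scale.

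Genes of the decay pathway were counted in the same way. Of 20 tested factors of nonsense-mediated decay, 3 rose and 1 fell with VHL-r and 4 rose and 1 fell with R4VPL3-1. Between the compounds 0 passed in limma, edgeR or DESeq2, with 1 at an unadjusted p under 0.05 in each, and 1 passed without R4VPL3-1 replicate 3. These 4 and 5 of 20 stand beside 19.8% and 24.9% of all genes. The VHL-r count was 2 without DMSO replicate 2 or VHL-r replicate 2, and the R4VPL3-1 count was 9 without replicate 3 of each treatment. EIF4A3, the anchor of the exon junction complex, rose by 0.31 with both (adjusted p = 6.44e-05 and 5.29e-05), and SMG1, the kinase of UPF1, rose by 0.28 with R4VPL3-1 (adjusted p = 0.00513). Of 27 mRNAs listed as targets of the pathway, 7 rose and 1 fell with VHL-r, and 12 rose and 3 fell with R4VPL3-1. Between the compounds 10 were higher and 1 was lower. Of all genes 19.8%, 24.9% and 1.87% were called in the 3 comparisons. The medians over the 27 were only 0.06, 0.09 and 0.04 on the log2 scale. SMG1 and other genes are on both lists. The largest rises among the targets were those of DDIT3 (2.15, adjusted p = 9.8e-12), SESN2 (1.91, adjusted p = 7.46e-14) and ATF3 (1.89, adjusted p = 1.8e-08) with R4VPL3-1. TGIF1 was lower with R4VPL3-1 than with VHL-r by 0.90 (adjusted p = 1.06e-07).

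DDIT3, ATF3, SESN2 and other listed targets are also on the list of integrated stress response markers. In that response, phosphorylation of eIF2 lowers translation. Of the 14 markers tested, 5 rose and 1 fell with VHL-r and 10 rose with R4VPL3-1, beside 19.8% and 24.9% of all genes called. With R4VPL3-1, 0 fell against DMSO by limma, edgeR or DESeq2, with 1 lower at an unadjusted p under 0.05. Between the compounds 7 were higher in limma and 8 in the count tests, beside 1.87% of all genes called in limma. There 0 of the markers were lower at any of these thresholds. The medians were 0.11, 0.56 and 0.36 on the log2 scale, beside -0.0277, 0.24 and 0.29 for the 9 hosts. CHAC1, which degrades glutathione, rose by 2.61 (limma adjusted p = 7.26e-11) with R4VPL3-1. DDIT4, an inhibitor of mTORC1, fell by 0.53 with VHL-r (adjusted p = 0.00477, a call lost with DESeq2 and with the robust option, up to 0.158) and rose by 2.14 (adjusted p = 7.26e-11) with R4VPL3-1. The part of this response in the values of the hosts was not tested.

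Proteins that mature snoRNAs changed little. Of 16 tested, NOP56, a core protein of C/D box particles, rose with VHL-r (0.17, limma adjusted p = 0.00632) and R4VPL3-1 (0.16, adjusted p = 0.00678), and GAR1, of H/ACA particles, fell with R4VPL3-1 by 0.23 (adjusted p = 0.00312). The counts were 2 with VHL-r without DMSO replicate 1 and 4 with R4VPL3-1 without DMSO replicate 3, against 1 and 2. Between the compounds 0 of the 16 passed in limma, edgeR or DESeq2, also at an unadjusted p under 0.05. Limma called 19.8% of all genes with VHL-r, 24.9% with R4VPL3-1 and 1.87% between the compounds, so this 0 says little.

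The genes whose pattern over the 9 libraries was most like that of the hosts were ranked by the root mean square difference between a gene's log2 values, centred on their mean, and the average of the same over the 9 tested hosts. That average was -0.17, -0.11 and -0.09 in the DMSO libraries, -0.06, -0.08 and -0.09 with VHL-r, and 0.31, 0.19 and 0.10 with R4VPL3-1 in replicates 1, 2 and 3. EIF4A2 came first with a difference of 0.0302, followed by SLC38A2, an amino acid transporter, with 0.0393, and by ZNF875, PIGA, HSPD1, ZNF621, PRKRIP1, TXNL4B, FUT11 and CHORDC1, up to 0.0549. By Pearson correlation over the same 9 libraries, 1 of these 10 genes, EIF4A2, was again among the first 10. Centred values favour genes that change by a like amount, and the ranking is a description of 9 libraries with no test.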

How the data were processed

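RNA from 9 cultures was made into strand-specific poly(A) libraries and sequenced as single reads of 100 bases. Per the methods, STAR mapped them to GRCh38 and htseq-count, run for the reverse strand, gave reads per gene. The authors deposited a normalized signal with 2 decimals, each read number over its library's size factor from DESeq2 (1.36.0). Here whole reads were recovered from the value of 1 read in each library, which in 2 libraries is within rounding of 1. Values enter limma 3.58.1 (R 4.3.3, trend option) as log2(value + 1), for genes whose mean reached 10, in 1 fit of all 9 libraries with treatment as the factor. Each group's 3 libraries are biological replicates. Exons, starts and frames came from GENCODE 44, which held 62639 of the 62710 identifiers, 62470 with equal start and end. Alternatives were other pseudocounts, filters, scalings, count tests on the recovered reads (edgeR 4.0.16, DESeq2 1.42.0), a replicate block, a threshold of 0.01 and libraries left out. The recovery and the fits were tested on simulated data.

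The members and gene lists were chosen with earlier results of these data known. The genes named are all members, up to 4 called genes of largest change per list and comparison, the neighbours by position and the 10 genes of nearest pattern. SNHG29, SNHG25, DANCR and the other hosts at 0 were named after their values were seen.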

Additional observations from a re-analysis of the deposited data

How the results depend on the processing

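Some of the 22 alternatives cannot move a fitted difference, only its p-value or its call. This holds for the filters, the robust option, the replicate block and the 0.01 threshold. It also holds for a fit of only the 6 libraries compared and for leaving out a library of the group not compared. Of 594 host values under the 22 alternatives, 568 kept their direction and their side of the threshold, 16 lost a call, 6 gained one and 4 turned. The 4 were GAS5 in VHL-r against DMSO, at 0.0026 with upper quartile scaling, 0.034 without DMSO replicate 3, 0.0179 without VHL-r replicate 2 and 0.0205 without replicate 3 of each treatment, in a range of -0.0392 to 0.034 when libraries were left out. The last alternative was chosen after seeing the data, and calls 4, 6 and 5 hosts in the 3 comparisons, against 3, 6 and 4. Of 13 called host results, 10 were called under every alternative. The exceptions were ZFAS1 with VHL-r, SNHG8 with R4VPL3-1 and EPB41L4A-AS1 between the compounds. Over all genes, a threshold of 0.01 called 1885 with VHL-r and 2494 with R4VPL3-1, against 3016 and 3792, and leaving out single libraries gave 182 (without R4VPL3-1 replicate 1) to 358 genes between the compounds, against 285. Of 462 list counts, 418 were within 1.5 times. Pearson correlation gave 1 of the same 10 genes of nearest pattern. The causes were not tested.

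Same-numbered libraries correlated by -0.006 to 0.121 in their deviations from group means (9 pairs) and others by -0.148 to 0.098, and 6 of 9 libraries were most like their own number, a hint of shared spread from the data and not from the design. Of the same-numbered pairs only VHL-r with R4VPL3-1 exceeded 0.1, in replicates 1 (0.121) and 3 (0.112). The sample numbers in the library names run replicate by replicate, but no label gives a shared batch. The fit without the block was therefore kept. A replicate block called 3451, 4241 and 389 genes and 3, 6 and 5 hosts, with ZFAS1 gained between the compounds (0.32). The replicate SD was above the counting error in 20 of 27 host and treatment groups. The 7 others were EPB41L4A-AS1 and SNHG6 in each treatment and SNHG16 with VHL-r. SNHG5 could not be compared.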
